A study of Mus musculus with 9 samples.

Results

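This account follows 10 heat shock protein genes of the cytosol and the mitochondria in mouse plasma cells, the antibody-secreting cells of the B lineage. They were picked by name, as a counterpart to the chaperones of the endoplasmic reticulum (ER), and each is 1 of 46958 genes in the count table. They are the inducible HSP70 genes Hspa1a and Hspa1b, the constitutive HSP70 gene Hspa8, the HSP70 partners Dnajb1 and Hsph1, the HSP90 genes Hsp90aa1 and Hsp90ab1, the small heat shock protein gene Hspb1, and the mitochondrial chaperonin genes Hspd1 and Hspe1. All 10 are protein-coding in GENCODE M21 and all 10 passed the filter on low counts.

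RNA was sequenced from spleen cells captured on beads through CD138, which plasma cells carry on their surface, at a purity that the submitters put above 80%. The 3 genotypes, WT, DH-LMP2A and kFRA, had 3 mice each, and every library came from the spleen of 1 mouse. All mice were 3 months old, had received no immunization and had the mixed background C57/BL6x129/SVxBALB/c. The kFRA genotype is labelled LCDD, which is light chain deposition disease, a disorder in which free antibody light chains settle in tissues. Beyond this the labels describe neither allele, and do not say whether kFRA mice also carry DH-LMP2A, what drives either allele, or which cells express it. LMP2A is a membrane protein of Epstein-Barr virus known to stand in for signals of the B cell receptor.

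Heat shock proteins are chaperones: they bind unfolded or newly made proteins and keep them from clumping until they fold. HSP70 proteins take up exposed stretches of a client in a cycle driven by ATP, J-domain proteins such as DNAJB1 deliver the client, and HSPH1 resets HSP70 by exchanging its nucleotide. HSP90 proteins act later, on kinases and other signalling proteins, HSPB1 holds unfolded proteins without using ATP, and HSPD1 with its lid HSPE1 folds proteins inside mitochondria. Under heat or other stress of the cytosol, the factor HSF1 binds repeats of the unit nGAAn in promoters and raises many of these genes. A plasma cell exports most of the protein it makes through the ER, where a separate set of chaperones, among them the HSP70 protein BiP (Hspa5) and the HSP90 protein GRP94 (Hsp90b1), is under the unfolded protein response.

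The promoters below are shown because the genes whose values varied or differed most, Hspa1a, Hspa1b and Hspb1, carry pairs of that unit close to the start of transcription, and because the first 2 can hardly be told apart. They come from RefSeq on GRCm38.p6, run from 250 bases before the start up to the base before it, and have in capitals each match to GAANNTTC, which reads the same on both strands.
Hspa1a, chr17:34972157-34972406, minus strand: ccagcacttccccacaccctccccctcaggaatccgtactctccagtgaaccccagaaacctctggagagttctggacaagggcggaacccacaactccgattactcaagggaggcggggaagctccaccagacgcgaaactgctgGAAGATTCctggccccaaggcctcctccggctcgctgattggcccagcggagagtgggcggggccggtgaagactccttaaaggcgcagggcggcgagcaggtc
Hspa1b, chr17:34959239-34959488, minus strand: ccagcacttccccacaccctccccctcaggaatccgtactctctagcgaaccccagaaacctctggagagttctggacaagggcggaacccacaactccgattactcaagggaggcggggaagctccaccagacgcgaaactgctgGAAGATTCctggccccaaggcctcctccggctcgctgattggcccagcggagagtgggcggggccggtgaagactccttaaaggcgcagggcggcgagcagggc
Hspb1, chr5:135887669-135887918, plus strand: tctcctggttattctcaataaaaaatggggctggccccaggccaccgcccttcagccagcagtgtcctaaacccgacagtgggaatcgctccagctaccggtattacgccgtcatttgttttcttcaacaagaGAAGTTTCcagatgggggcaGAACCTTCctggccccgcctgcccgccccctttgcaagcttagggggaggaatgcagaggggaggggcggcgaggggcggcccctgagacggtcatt

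The promoters of Hspa1a and Hspa1b were identical at 247 of 250 bases (98.8%), and in both 96 bases lay between the match and the start. Hspb1 held 2 matches, 109 and 89 bases before its start. Hspd1 and Hspe1 are neighbours on chromosome 1 that are read in opposite directions and overlap at their starts, and a longer run of units there is shown because it lies before a listed start of both. It lies at chr1:55088053-55088082, 71 bases before the start of Hspe1 and 126 bases before the second of the starts listed for Hspd1, inside Hspd1 as the deposited table bounds it, and is written on the plus strand with the run in capitals.
Hspe1 and Hspd1: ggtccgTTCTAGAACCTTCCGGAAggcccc

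Promoter entries were matched for 7 of the 10 genes, the others being Hspa8, Hsp90aa1 and Hsp90ab1. Of these 7, 6 had at least 1 match to GAANNTTC within 250 bases before to 50 bases after a start, and 3 had a 3-unit run, which is GAANNTTC followed by NNGAA or preceded by TTCNN. Among all 32851 mouse promoters in the same table, 7.86% held the shorter motif and 0.603% the longer one on either strand. These shares are per promoter entry, whereas a member counted once if any of its starts had a match. The matches of Hspa1a and Hspa1b, and the run that Hspd1 and Hspe1 share, are not separate observations. A match describes letters in the sequence and not binding.

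Library totals ran from 15449026 to 21558128 counts, so that 3 counts, taken as the floor of detection, equalled 0.127 to 0.205 CPM, the usual unit of counts relative to a library's total, here with TMM scaling of the totals. Sdc1, which encodes CD138, lay between 302 and 693 CPM in the 9 libraries. Ighm, the heavy chain of IgM, separated WT (154300 to 184300 CPM) from DH-LMP2A (9365 to 10030 CPM) and kFRA (6981 to 10470 CPM). RNA of other blood cells was present and differed between genotypes. Summed over 8 markers each, erythroid genes gave 39.3 to 341 CPM in WT, 2566 to 13640 in DH-LMP2A and 1167 to 2807 in kFRA, and myeloid genes gave 2693 to 4639, 780.1 to 2261 and 1592 to 2324 CPM. kFRA replicate 2 stood apart, with 1112 of 13942 genes other than immunoglobulin at least 2-fold from the mean of the other 2 kFRA libraries, followed by DH-LMP2A replicate 3 with 953, against 225 to 581 in the remaining libraries.

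**Figure D1:**
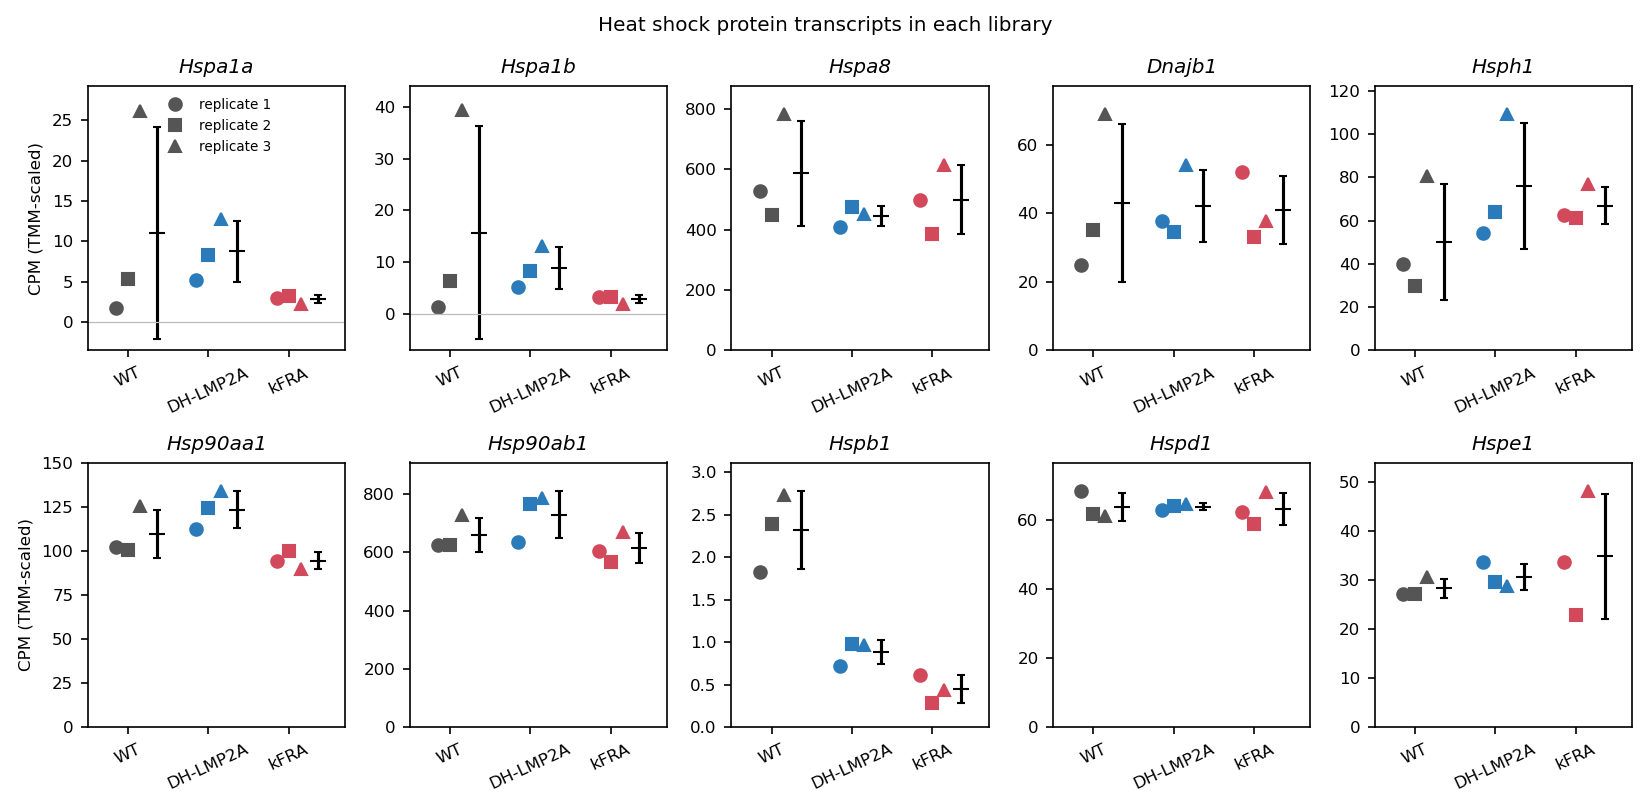
Each panel plots 1 gene, with CPM on the vertical axis, the 3 genotypes on the horizontal axis, symbols for replicates 1 to 3, and a bar for the mean ± SD. Hspb1 is highest in the 3 WT libraries, Hspd1 stays near 1 level throughout, and WT replicate 3 lies far above the other WT libraries for Hspa1a and Hspa1b.

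Of the 10 genes, Hspb1 alone passed the test in any comparison. It was 5.24-fold lower in kFRA and 2.61-fold lower in DH-LMP2A than in WT. No member was called between kFRA and DH-LMP2A (0 of 10 by edgeR and by DESeq2, 2 of 10 at an unadjusted p under 0.05), and no member was called higher in any comparison. With edgeR's quasi-likelihood test and an adjusted p under 0.05, 11.1% of the 14199 genes tested were called lower and 17.8% in either direction in kFRA against WT, where 1 of the 10 members was called. In DH-LMP2A against WT these shares were 7.3% and 12.4%, again with 1 of the 10, and in kFRA against DH-LMP2A, with 0 of the 10, 5.02% of all genes were called in either direction, 1.73% higher and 3.3% lower. The members' counts lay near these backgrounds. The 2 comparisons against WT share the WT libraries, so their calls of Hspb1 are not independent of each other. The median log2 fold change of the 10 genes was −0.16 in kFRA against WT, −0.01 in DH-LMP2A against WT and −0.22 in kFRA against DH-LMP2A, beside −0.04, −0.01 and 0.00 over all genes tested. With library size alone in place of TMM scaling, the median of all genes moved to 0.17, 0.33 and −0.14, and that of the members to 0.06, 0.35 and −0.35, so signs of small differences here hold only relative to the scaling.

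**Figure D2:**
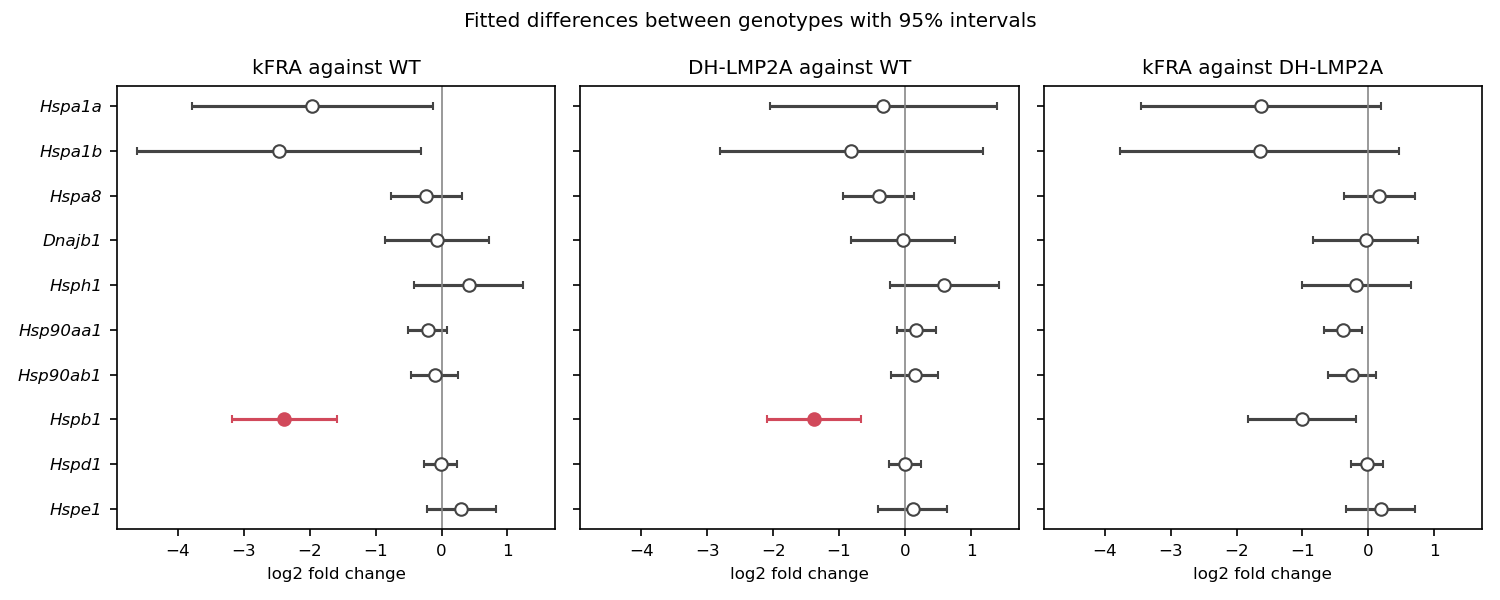
The 3 panels give the fitted log2 fold change of each member with its 95% interval, filled red where the adjusted p is under 0.05. The intervals of Hspa1a and Hspa1b are the widest, those of Hspd1 span 0 closely in every panel, and Hspb1 is filled in both comparisons against WT.

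Expression levels were compared between genes as CPM per kilobase of exon, averaged over the 9 libraries. Hsp90ab1 was the most abundant at 223 CPM per kilobase (range 189 to 262), followed by Hspa8 at 123 (92.9 to 188). Hsp90aa1 (27.8), Hspd1 (24.1), Hspe1 (21.2) and Dnajb1 (18.6) formed the middle of the order. Hsph1 stood at 8.85, Hspa1b at 3.26, Hspa1a at 2.54 and Hspb1 at 1.18 CPM per kilobase. From Hsp90aa1 downwards, the ranges over the 9 libraries overlapped between each gene and the next. On this measure, Hsp90ab1, Hspa8 and Hsp90aa1 were separated in all libraries. The lengths are those of merged exons, 4156 bases for Hspa8 and 1474 for Hspe1. Their longest coding transcripts have 2394 and 774, so the order can depend on the length used. Counts that went to copies of Hspa8 are not in its level. With the copies of each added, Hspa8 (672 to 1186 CPM) and Hsp90ab1 (568 to 786 CPM) overlapped before division by length. The constitutive cytosolic genes Hsp90ab1 and Hspa8 were thus the main heat shock transcripts, and the stress-inducible HSP70 pair was near the bottom. The share of all raw counts, without TMM scaling, held by the 10 genes was 0.122% to 0.152% in WT, 0.155% to 0.184% in DH-LMP2A and 0.134% to 0.151% in kFRA. With TMM scaling the genotypes overlapped, the sum being 1344 to 1945 CPM in WT, 1358 to 1656 in DH-LMP2A and 1236 to 1611 in kFRA.

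Hspa1a (17:34969190-34972156, 1 exon) and Hspa1b (17:34956436-34959238, 1 exon), coordinates as in the deposited table read as GRCm38, encode the HSP70 that cells make under stress. Hspa1a gave 1.72, 5.36 and 26.1 CPM in WT replicates 1 to 3, 5.16, 8.35 and 12.8 in DH-LMP2A and 3.01, 3.19 and 2.26 in kFRA. Hspa1b gave 1.42, 6.43 and 39.4 CPM in WT, 5.20, 8.31 and 13.1 in DH-LMP2A and 3.22, 3.28 and 1.95 in kFRA. Each kFRA library was below each DH-LMP2A library for both genes, but the WT libraries spanned all the others, with replicate 1 the lowest of the 9 and replicate 3 the highest. On the log2 scale, Hspa1a differed by −1.63 (SE 0.81, adjusted p = 0.265 by edgeR) in kFRA against DH-LMP2A and −1.96 (SE 0.81, adjusted p = 0.122) in kFRA against WT. For Hspa1b the values were −1.65 (SE 0.94, adjusted p = 0.324) and −2.47 (SE 0.96, adjusted p = 0.102). Neither gene differed from WT in DH-LMP2A beyond the spread of the replicates (log2 fold changes −0.33 and −0.82, adjusted p = 0.846 and 0.632). The test did not pass in either gene, and with intervals of 0.0723 to 0.916 for Hspa1a and 0.0406 to 0.804 for Hspa1b on the fold scale in kFRA against WT the size of a difference was poorly fixed.

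The 2 transcripts are 99.2% identical over 2201 aligned bases and lie 9952 bases apart, so reads could be assigned to either copy, and the sum of both is the safer quantity. Summed, the pair gave 3.14, 11.8 and 65.5 CPM in WT, 10.4, 16.7 and 25.9 in DH-LMP2A and 6.22, 6.47 and 4.20 in kFRA. WT mice thus differed 20.8-fold among themselves, DH-LMP2A mice 2.5-fold and kFRA mice 1.54-fold. The sum differed by −2.24 (SE 0.88, edgeR adjusted p = 0.106) in kFRA against WT and by −1.64 (SE 0.87, adjusted p = 0.291) in kFRA against DH-LMP2A on the log2 scale. Single WT libraries decided the call and the size. Without WT replicate 1, Hspa1a (−2.47, adjusted p = 0.0358) and Hspa1b (−3.02, adjusted p = 0.0264) were both called lower in kFRA than in WT, and the Wald test of DESeq2 on all libraries called Hspa1a alone of the pair (−1.94, adjusted p = 0.0331). Without WT replicate 3, the differences shrank to −0.33 for Hspa1a and −0.48 for Hspa1b in kFRA against WT, and in DH-LMP2A against WT they turned to 1.31 and 1.18 (adjusted p = 0.162 and 0.283). Hspa1b held 45.2% to 54.5% of the pair's counts in 8 libraries and 60.1% (exact 95% interval 57% to 63.1%, counting error only) in WT replicate 3, the library where the pair was highest.

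**Figure D3:**
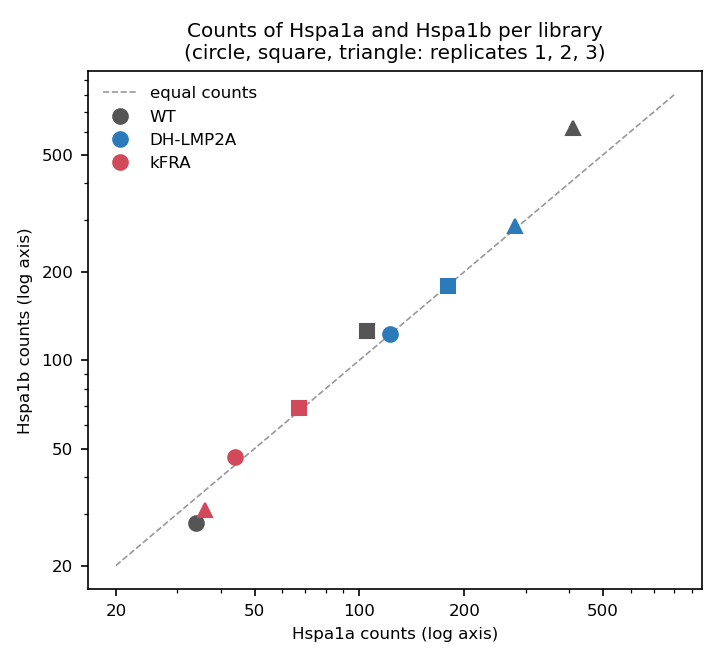
Counts of Hspa1b are plotted against counts of Hspa1a for each library on log axes, coloured by genotype with symbols for the replicates, and a dashed line of equal counts. The libraries run along the line from 34 and 28 counts in WT replicate 1 to 410 and 618 in WT replicate 3, which lies above it.

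Hspa8 (9:40800984-40805200) encodes the HSP70 made at all times, which also drives folding of new proteins and uncoating of clathrin vesicles. It gave 527, 450 and 782 CPM in WT, 408, 474 and 452 in DH-LMP2A and 498, 386 and 614 in kFRA. The genotypes overlapped, and none of the 3 comparisons passed the test (log2 fold changes −0.40, −0.23 and 0.17 in DH-LMP2A against WT, kFRA against WT and kFRA against DH-LMP2A, edgeR adjusted p = 0.343, 0.508 and 0.714). The fitted fold in kFRA against WT had a 95% interval of 0.585 to 1.24. Its exons also hold the small nucleolar RNA genes Snord14c, Snord14d and Snord14e, whose counting could take reads from it.

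Much of the sequence of Hspa8 also occurs in processed pseudogenes, and 44.9% of the counts given to Hspa8 and its near copies were given to the copies. Gm15459 (5:5781615-5783555, minus strand), a processed pseudogene 99.7% identical to the Hspa8 transcript over 1941 bases, received 54035 counts in all, against 86418 for Hspa8. As a percentage of the Hspa8 counts, Gm15459 had 38.9, 38.5 and 39.3 in WT, 96.2, 100 and 97 in DH-LMP2A and 57.9, 64.4 and 32.9 in kFRA. The WT libraries lay within 1 point of each other and all DH-LMP2A libraries lay above all others. Gm15459 was called higher in DH-LMP2A than in WT (log2 fold change 0.93, SE 0.23, edgeR adjusted p = 0.0283; 436 ± 41.3 against 228 ± 70.2 CPM, SD, n = 3 each), while it did not pass in kFRA against DH-LMP2A (−0.82, adjusted p = 0.0772) or kFRA against WT (0.11, adjusted p = 0.754). Whether these counts come from transcription of the copy or from reads of Hspa8 was not tested, and it touches the level of Hspa8. With the copies added to Hspa8, its difference between DH-LMP2A and WT turned from −0.40 to 0.17 (adjusted p = 0.713), and none of its 3 comparisons passed the test.

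**Figure D4:**
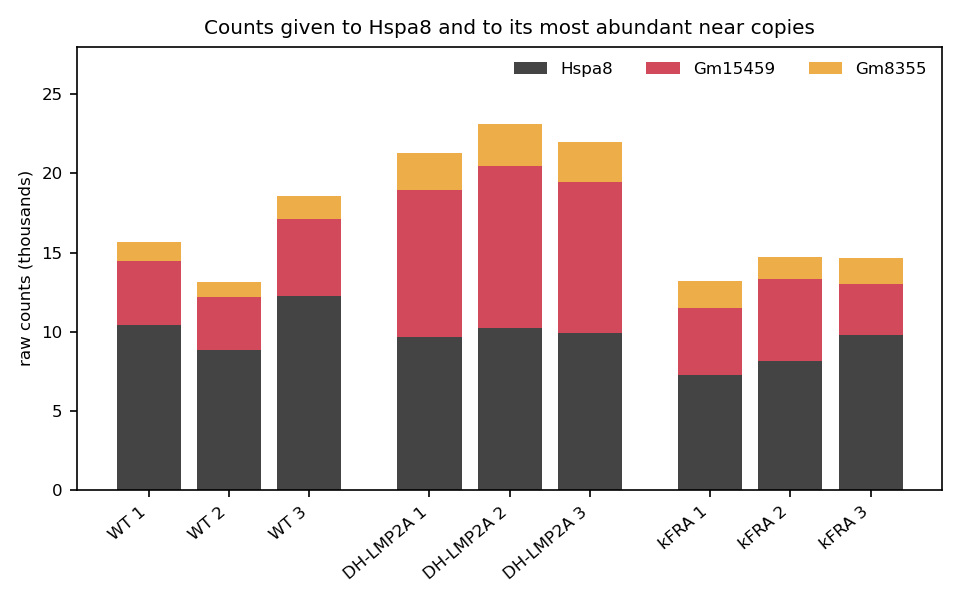
Stacked bars give raw counts for Hspa8 and its most abundant near copies Gm15459 and Gm8355 in each library, grouped by genotype. The Gm15459 segment reaches 9289 to 10246 counts in the DH-LMP2A libraries and 3218 to 5223 in the others, while the Hspa8 segment stays between 7276 and 12279.

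Dnajb1 (8:83608175-83611902), the J-domain partner that hands clients to inducible HSP70, gave 24.9, 35.1 and 68.9 CPM in WT, 37.8, 34.6 and 54.2 in DH-LMP2A and 52.0, 33.1 and 37.8 in kFRA. The group means were 43.0 ± 23.0, 42.2 ± 10.5 and 41.0 ± 9.82 CPM (SD, n = 3), and the libraries overlapped in every comparison. Its log2 fold changes were −0.03 to −0.07, with edgeR adjusted p-values of 0.904 to 0.976. The 95% interval in kFRA against WT was wide, at 0.551 to 1.65 on the fold scale.

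Hsph1 (5:149614287-149636376), the HSP110 that exchanges the nucleotide of HSP70, gave 40.01, 29.9 and 80.7 CPM in WT, 54.4, 64.1 and 109 in DH-LMP2A and 62.8, 61.0 and 76.8 in kFRA. Replicate 3 was the highest in each genotype, and the genotypes overlapped. The differences from WT, 0.60 (SE 0.37) in DH-LMP2A and 0.42 (SE 0.37) in kFRA on the log2 scale, did not pass edgeR's test (adjusted p = 0.351 and 0.438). Hsph1 and Hspe1 had the most positive fitted difference from WT in kFRA among the 10 genes.

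The HSP90 pair varied little. Hsp90aa1 (12:110690605-110702728), the stress-responsive form, gave 103, 101 and 126 CPM in WT, 113, 124 and 134 in DH-LMP2A and 94.1, 99.8 and 89.8 in kFRA. Every kFRA library was below every library of the other genotypes, but the steps were small: −0.39 (SE 0.13, edgeR adjusted p = 0.134) against DH-LMP2A and −0.21 (SE 0.13, adjusted p = 0.271) against WT on the log2 scale. Hsp90ab1 (17:45567775-45573271), the constitutive form, gave 626, 625 and 728 CPM in WT, 637, 768 and 786 in DH-LMP2A and 606, 568 and 671 in kFRA, and its groups overlapped. Its log2 fold changes were −0.10, 0.15 and −0.25 in kFRA against WT, DH-LMP2A against WT and kFRA against DH-LMP2A, with adjusted p-values of 0.671, 0.631 and 0.378. The ratio of Hsp90aa1 to Hsp90ab1, both per kilobase, was 0.118 ± 0.016 in the kFRA libraries, 0.129 ± 0.00585 in DH-LMP2A and 0.126 ± 0.0044 in WT (SD, n = 3), with overlapping libraries (exact 2-sided permutation p = 0.3 to 0.6, the smallest possible being 0.1). With kFRA replicate 2 and WT replicate 3 both left out, a choice made after the data were seen, Hsp90aa1 was called lower in kFRA than in DH-LMP2A (−0.43, adjusted p = 0.033). Over all genes 3437 were then called in that comparison, against 713 with all libraries. Near copies, mainly Gm12346 and Gm5844, held 12.8% of the counts of Hsp90aa1 and its copies, and adding them left the differences at −0.34 and −0.19.

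Libraries of the groups did not overlap for 4 of the 10 members in kFRA against DH-LMP2A, all with kFRA lower: Hspa1a, Hspa1b, Hsp90aa1 and Hspb1. Over all genes tested, 13.9% were lower without overlap in that comparison and 25.6% separated in either direction. In kFRA against WT the count was 2 of 10, Hsp90aa1 and Hspb1, where 20.2% of all genes were lower without overlap and 34.3% separated in either direction. In DH-LMP2A against WT it was 1 of 10, Hspb1, beside 19.1% and 36.6%. Since Hspa1a and Hspa1b share most of their sequence, they do not count as separate observations.

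Hspb1 (5:135887919-135889563, 2 exons), the small heat shock protein HSP25, was the member with the fewest counts. WT libraries held 36, 47 and 43 counts (1.82, 2.397 and 2.74 CPM), DH-LMP2A libraries 17, 21 and 21 (0.719, 0.974 and 0.961 CPM) and kFRA libraries 9, 6 and 7 (0.616, 0.285 and 0.439 CPM). The 3 genotypes did not overlap at all, in the order WT, DH-LMP2A, kFRA. The means were 2.32 ± 0.463, 0.885 ± 0.144 and 0.447 ± 0.165 CPM (SD, n = 3). Against WT, the log2 fold change was −2.39 in kFRA (SE 0.35, 95% interval −3.18 to −1.59, edgeR adjusted p = 0.00218) and −1.38 in DH-LMP2A (SE 0.32, 95% interval −2.1 to −0.664, adjusted p = 0.0219). kFRA against DH-LMP2A did not pass the test (−1.01, SE 0.36, adjusted p = 0.153), although each kFRA library was lower. In bulk RNA, fewer cells of a type that carries Hspb1 and less of its RNA per cell cannot be told apart.

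The difference between kFRA and WT passed in 15 of 15 alternatives that could test Hspb1, whereas that between DH-LMP2A and WT passed in 10 of 15. That call was lost on leaving out any 1 of the 6 libraries compared other than WT replicate 1, with log2 fold changes of −1.25 to −1.45 and adjusted p-values of 0.0566 to 0.0998. Near copies, mainly the pseudogene Hsp25-ps1, held 25.3% of the counts of Hspb1 and its copies, and with them added the differences were −2.25 (adjusted p = 0.00699) and −1.40 (adjusted p = 0.0459). Markers of other cells moved alongside. Of 8 myeloid markers, Lyz2 and Itgam were called lower in kFRA than in WT and Lyz2 in DH-LMP2A, with none of the 8 at 0 in any library. Of 6 granulocyte markers tested, S100a8 and S100a9 were called lower in kFRA than in WT, whereas in DH-LMP2A none was called lower, Mpo was called higher and 4 of the 6 had positive differences. The sum over the granulocyte list of 8, to which S100a8 and S100a9 belong, was 255.4 to 820.5 CPM in WT, 20.09 to 256.6 in DH-LMP2A and 6.84 to 25.4 in kFRA, with Elane at 0 in 4 of the 9 libraries and Prtn3 in 1. Of 8 B cell markers, 5 were called lower in kFRA than in WT, among them Cd22 and Pax5, and the summed B cell list gave 596.2 to 858.2 CPM in WT and 477.2 to 600.3 in kFRA. In DH-LMP2A (678.7 to 1051 CPM), 2 of the 8 were called higher and 2 lower than in WT. Of 8 erythroid markers, 5 were called higher than in WT in each of the other genotypes. None of the 8 T cell markers was called in any comparison, with sums of 46.7 to 99.5 CPM in WT, 40.6 to 82.8 in DH-LMP2A and 33.1 to 55.8 in kFRA. The part of these cells in the lower Hspb1 was not tested.

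Hspd1 (1:55077835-55088243), the barrel of the mitochondrial chaperonin, was the steadiest member. It gave 68.6, 61.7 and 61.3 CPM in WT, 63.0, 64.2 and 64.9 in DH-LMP2A and 62.5, 58.9 and 68.3 in kFRA. The means were 63.9 ± 4.10, 64.0 ± 0.938 and 63.2 ± 4.69 CPM (SD, n = 3), and the highest library was 1.16-fold above the lowest. Its log2 fold changes lay between −0.02 and 0.00 (edgeR adjusted p = 0.937 to 0.989), with 95% intervals of 0.833 to 1.17, 0.835 to 1.17 and 0.846 to 1.19 on the fold scale in kFRA against DH-LMP2A, kFRA against WT and DH-LMP2A against WT. The intervals bound any difference in Hspd1 at about that size, given TMM scaling. With library size alone in place of TMM, its differences were −0.16, 0.18 and 0.34, close to the shift of the median of all genes under that scaling (−0.14, 0.17 and 0.33).

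Hspe1 (1:55088132-55091307), the lid of the chaperonin, gave 27.1, 27.1 and 30.6 CPM in WT, 33.6, 29.5 and 28.7 in DH-LMP2A and 33.7, 22.7 and 48.2 in kFRA. The kFRA libraries alone held both the lowest and the highest value, in replicates 2 and 3. No comparison passed the test (log2 fold changes 0.30, 0.12 and 0.19 in kFRA against WT, DH-LMP2A against WT and kFRA against DH-LMP2A, edgeR adjusted p = 0.372, 0.817 and 0.667). The call turned on kFRA replicate 2: without it Hspe1 was called higher in kFRA than in WT (0.60, SE 0.17, adjusted p = 0.0267). Over all genes 5632 were then called in that comparison, against 2523 with all libraries. The 2 genes overlap by 111 bases on opposite strands, and the ratio of Hspe1 to Hspd1 per kilobase was 0.974 ± 0.287 in the kFRA libraries, 0.858 ± 0.0871 in DH-LMP2A and 0.796 ± 0.094 in WT (SD, n = 3), with overlapping libraries (exact 2-sided permutation p = 0.4 to 0.6). Hspd1 and Hspe1, whose starts lie around the run of units shown above, correlated moderately over the 9 libraries (Pearson r = 0.543, Spearman rho = 0.2, a description).

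The members differed widely in how much mice of 1 genotype varied. The SD within genotypes, of log2 CPM after adding 0.5 CPM, was 1.34 for Hspa1b and 1.11 for Hspa1a. These were above 99.5% and 99.2% of the tested genes, whose median was 0.258. Hsph1 (0.528) and Dnajb1 (0.506) exceeded 89.3% and 88.2% of genes, while Hspe1 (0.321) and Hspa8 (0.312) were near the middle. Hspb1 gave 0.222, but the added 0.5 CPM damps the spread of a gene at 0.285 to 2.74 CPM, so its rank is not given. Hsp90ab1 (0.14), Hsp90aa1 (0.131) and Hspd1 (0.0811) were among the steadier genes, Hspd1 being above 2.22% of them. Without the log, the SD of Hspb1 was 19.9%, 16.2% and 37% of the mean in WT, DH-LMP2A and kFRA. For Hspa1a that share was 119%, 43.6% and 17.5%, and for Hspa1b 131%, 45% and 26.8%. In kFRA both were below Hspe1 (36.6%). Variation among mice was therefore small in the HSP90 genes and Hspd1. In the stress-inducible HSP70 genes it was large in WT above all, and not in kFRA.

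Some of the cytosolic genes varied in the same direction within genotypes. A subset of 7 genes was chosen after their values were seen: Hspa1a, Hspa1b, Hspa8, Dnajb1, Hsph1, Hsp90aa1 and Hsp90ab1. Their deviations from the genotype means correlated positively in 21 of 21 pairs (r from 0.444 to 0.997, median 0.73, over the same 9 libraries, which share depth and scaling). Hspa1a and Hspa1b are not separate observations here, and Hspb1, also cytosolic, was not in the subset. The share of positive pairs over all genes was not computed, so these correlations are a description. WT replicate 3 was the highest WT library for 7 of these 7 genes and for 9 of the 10 members. DH-LMP2A replicate 3 was the highest of its genotype for 6 of the 7. These libraries had the lowest TMM factors of their genotypes, 0.779 and 1.05, which raises their CPM. The counts of highest libraries thus hold under TMM scaling and were not made with library size alone. Hspd1 did not follow: its deviations correlated at −0.539 with those of Hspa1a, −0.409 with Hsp90aa1 and 0.338 with Hspa8. Replicate numbers name different mice, and the labels name no pairing of numbers across genotypes.

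The genes around the heat shock proteins were examined by list. Of 4 heat shock factors and regulators tested, none was called by edgeR in any comparison (1 at an unadjusted p under 0.05 and 1 by DESeq2 in kFRA against WT). Hsf1, the factor that drives the heat shock response, gave 30.03, 23.9 and 24.5 CPM in WT, 26.2, 32.3 and 29.8 in DH-LMP2A and 35.8, 30.8 and 42.8 in kFRA. Each kFRA library was above each WT library, and the difference of 0.48 (SE 0.16) on the log2 scale narrowly missed the threshold of edgeR's test (adjusted p = 0.0658). None of 17 HSP90 cofactors and none of 14 subunits of the cytosolic chaperonin TRiC and prefoldin were called by edgeR in any comparison. At an unadjusted p under 0.05 the HSP90 cofactors numbered 2 in kFRA against WT and 1 in kFRA against DH-LMP2A, and the chaperonin subunits 1 and 3, and DESeq2 called 1 HSP90 cofactor in kFRA against WT. Without kFRA replicate 2, 8 of the 17 HSP90 cofactors were called in kFRA against WT, 7 of them higher, and 3 in kFRA against DH-LMP2A. Calls over all genes also rose then, from 2523 to 5632 in the first comparison and from 713 to 3299 in the second. Of the chaperonin subunits, 5 and 4 were then called, all of them higher. In DH-LMP2A against WT, library size alone in place of TMM called 9 HSP90 cofactors and 4 chaperonin subunits higher. Under that scaling the median of all genes was also shifted up, to 0.33. Of all genes called there, 79.9% were higher, against 41% with TMM.

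Of 24 other cytosolic HSP70 genes and HSP70 cofactors tested, 2 were called higher and 3 lower in kFRA against WT, and 1 higher and 3 lower in DH-LMP2A against WT. In kFRA against DH-LMP2A edgeR called 0, with 5 at an unadjusted p under 0.05 and 0 by DESeq2. Without kFRA replicate 2 these counts were 11 against WT (7 higher, 4 lower) and 7 against DH-LMP2A (5 higher, 2 lower). Over all genes 5632 and 3299 were then called. Leaving out any other 1 library gave 1 to 3 in kFRA against WT, and 1 to 2 in DH-LMP2A against WT. Bag3, a nucleotide exchange factor that is itself a heat shock target, gave 8.76, 9.44 and 15.3 CPM in WT, 4.4, 4.96 and 4.58 in DH-LMP2A and 5.34, 6.14 and 6.52 in kFRA. All WT libraries were above all others, and Bag3 was called lower in DH-LMP2A (−1.26, SE 0.23, edgeR adjusted p = 0.00774) and in kFRA (−0.89, SE 0.23, adjusted p = 0.0278) than in WT. The first call held in 16 of 16 alternatives and the second in 11 of 16, ending without kFRA replicate 1 (adjusted p = 0.102), kFRA replicate 3 (0.0584) or WT replicate 3 (−0.60, 0.0653). Hspa2, an HSP70 best known from the testis, was called lower in both (−1.67, adjusted p = 0.00731 in kFRA, and −1.28, adjusted p = 0.0253 in DH-LMP2A), as was Hspa12a, at 39 to 51 counts per WT library and 0 to 8 in the others. In DH-LMP2A, the call of Hspa2 held on leaving out WT replicate 1 and ended on leaving out any other library, and that of Hspa12a ended on leaving out any of the 6 libraries. In kFRA, the call of Hspa2 held in 6 of 6 such cases and that of Hspa12a ended without kFRA replicate 3 (adjusted p = 0.0606). Dnajb2 (0.99, adjusted p = 0.015) and Dnajc7 were called higher in kFRA than in WT, and Dnaja4 in DH-LMP2A than in WT. The call of Dnajb2 ended on leaving out kFRA replicate 1 or 3 or WT replicate 1 or 2 (adjusted p = 0.0508 to 0.065). Dnajc7 and Dnaja4 overlap other genes, as do Htra2, Pdia4, Pdia6, Sil1 and Hsp90b1, described below.

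Hspb6, the small heat shock protein HSP20, went the other way from Hspb1 in kFRA but not in DH-LMP2A. It gave 6.89, 5.76 and 6.05 CPM in WT, 4.61, 4.13 and 4.81 in DH-LMP2A and 17.3, 15.8 and 26.7 in kFRA. It was called higher in kFRA than in DH-LMP2A (2.14, SE 0.22, edgeR adjusted p = 0.00034) and than in WT (1.68, SE 0.22, adjusted p = 0.000928), in 16 of 16 alternatives each. Each DH-LMP2A library was below each WT library, but that difference did not pass edgeR's test (−0.465, adjusted p = 0.208). Its exons overlap those of Lin37 and Proser3 on the other strand, and since the strand setting of the counting is not given, reads of these genes cannot be told from its own. Of 10 other small heat shock protein genes listed, 7 were too low to test, and Hspb11 and Cryab did not pass.

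Of 19 other mitochondrial chaperones and proteases, Htra2, a protease between the membranes, was called higher in kFRA than in WT (0.43, SE 0.11, edgeR adjusted p = 0.0245). Spg7 (0.75, adjusted p = 0.00216), a protease of the inner membrane, and Clpb (0.62, adjusted p = 0.0296) were called higher in DH-LMP2A than in WT. The call of Spg7 held on leaving out any 1 library, that of Htra2 only on leaving out kFRA replicate 2 or 3, and that of Clpb only on leaving out WT replicate 3. Hspa9, the mitochondrial HSP70 that works upstream of Hspd1, gave 102, 106 and 106 CPM in WT, 93.1, 89.3 and 96.2 in DH-LMP2A and 113, 95.4 and 146 in kFRA, and did not pass in any comparison (adjusted p = 0.227 to 0.546). Without kFRA replicate 2, 8 of the 19 were called higher in kFRA than in WT, where 5632 of all genes were then called in either direction.

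The ER chaperones were the contrast for which the members were picked. Of 22 ER chaperones, 14 were called higher in kFRA than in WT and 8 in DH-LMP2A than in WT, none lower, where 6.68% and 5.07% of all tested genes were called higher. The list's median log2 fold change was 0.82 and 0.46, against −0.16 and −0.01 for the 10 members. The disulfide isomerases Pdia4 (1.74, adjusted p = 0.00227 in DH-LMP2A, and 1.17, adjusted p = 0.0122 in kFRA) and Pdia6 (1.63, adjusted p = 0.00119, and 1.08, adjusted p = 0.00743) were called higher than in WT in both, as was Sil1, the nucleotide exchange factor of BiP (1.57, adjusted p = 0.000832, and 0.85, adjusted p = 0.0141). Without WT replicate 2, the calls of Pdia4 and Sil1 in kFRA ended (adjusted p = 0.0543 and 0.0642). In kFRA against DH-LMP2A, edgeR called only Serpinh1, the collagen chaperone (2.77, adjusted p = 0.00512), while 11 of the 22 were at an unadjusted p under 0.05 and DESeq2 called 5. The share of all genes at an unadjusted p under 0.05 was not computed, here or for the other lists. Libraries did not overlap for 6 ER chaperones higher and 5 lower in kFRA than in DH-LMP2A, beside 11.6% and 13.9% of all genes tested. The list's median of −0.01 thus covers differences in both directions. Without kFRA replicate 2 edgeR called 5, all higher, and with WT replicate 3 left out too, 8. Over all genes 3299 and 3437 were then called in either direction. The ER count in kFRA against WT depended on single libraries: it was 4 without kFRA replicate 1, 18 without replicate 2, 7 without replicate 3, and 5, 2 and 16 without WT replicates 1, 2 and 3. Over all genes, 5632 were called in kFRA against WT without kFRA replicate 2. In DH-LMP2A against WT the ER count was 4 without DH-LMP2A replicate 1 or WT replicate 1 or 2, and 6 to 9 without each of the others. It was 19 and 13 with kFRA replicate 2 and WT replicate 3 both left out. Plasma cell markers also differed from WT. Of 10, 4 were called higher and 1, Tnfrsf17, lower than in WT in each of the other genotypes, with medians of 0.50 in kFRA and 0.66 in DH-LMP2A. Their sum was 19270 to 24510 CPM in WT, 34680 to 47710 in DH-LMP2A and 21000 to 33130 in kFRA, and their part in the ER counts was not tested. The members' count without kFRA replicate 2 and WT replicate 3 was 2 (Hspe1 higher, Hspb1 lower) and 1.

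**Figure D5:**
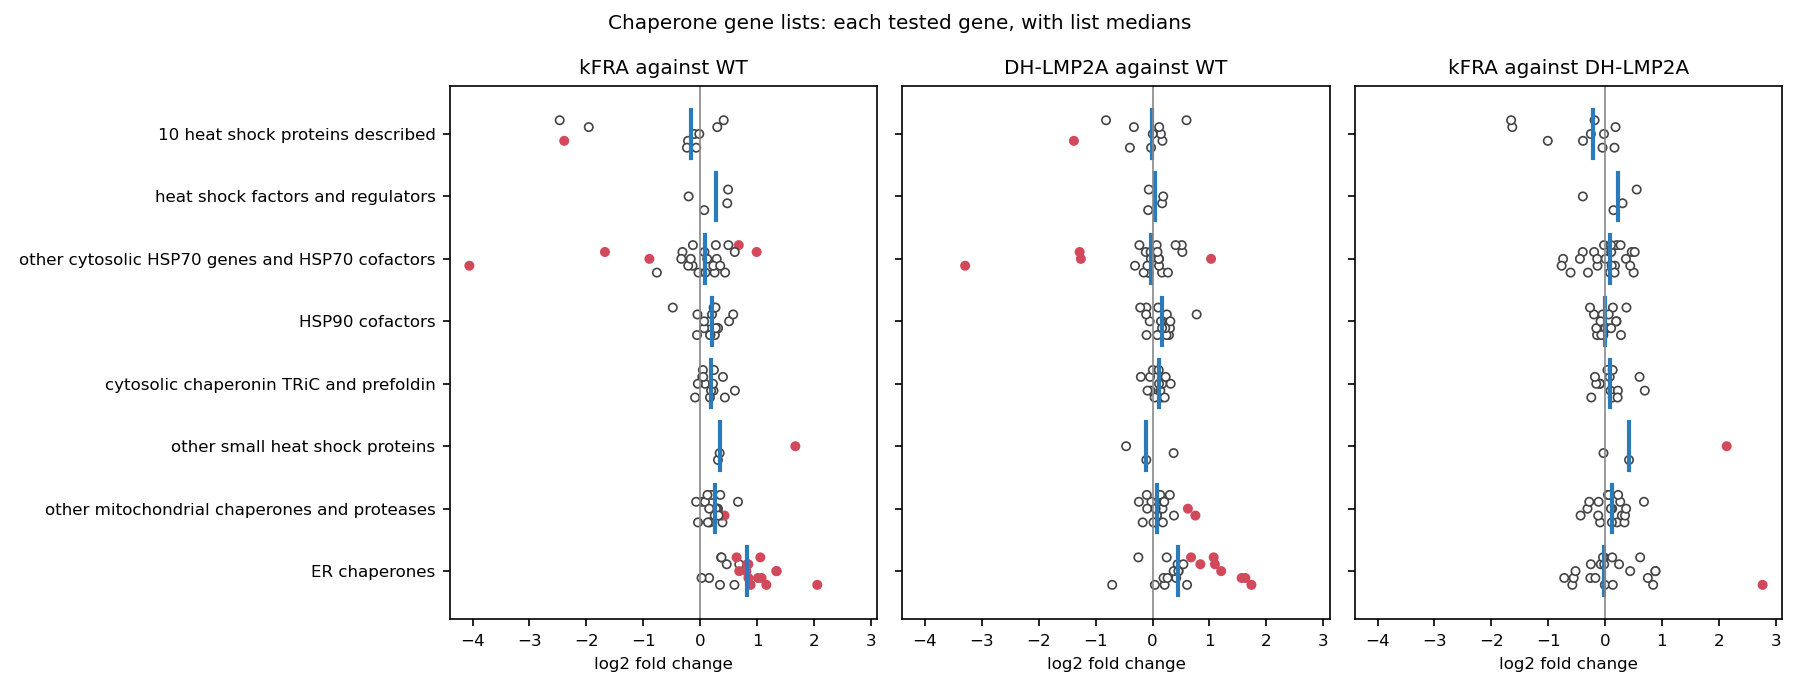
Each point is the log2 fold change of 1 tested gene, by list and comparison, filled red where the adjusted p is under 0.05, with a blue bar at the list's median. In both comparisons against WT the ER chaperones are shifted to the right, with medians of 0.82 and 0.46, while the 10 heat shock proteins have medians of −0.16 and −0.01.

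The paralogues of the 2 compartments were set side by side as ratios per kilobase. Hspa5, the HSP70 of the ER, was called higher in kFRA than in WT (0.89, SE 0.27, edgeR adjusted p = 0.0482; 4151 ± 666 against 2244 ± 722 CPM, SD, n = 3), a call that held on leaving out kFRA replicate 2 or WT replicate 3 and ended on leaving out any other library (adjusted p = 0.116 to 0.155). The ratio of Hspa5 to Hspa8 was 3.70, 3.69 and 3.85 in WT, 6.21, 4.17 and 5.08 in DH-LMP2A and 9.28, 8.68 and 6.95 in kFRA. With Hspa8 counted on its own, the genotypes did not overlap, in the order WT, DH-LMP2A, kFRA, with an exact 2-sided permutation p of 0.1 for each pair, the smallest that 3 against 3 libraries allow. Hsp90b1, the HSP90 of the ER, was called higher in kFRA (1.06, adjusted p = 0.0183) and in DH-LMP2A (1.08, adjusted p = 0.021) than in WT. Both calls ended without WT replicate 1 or 2, the first also without kFRA replicate 1 and the second without DH-LMP2A replicate 1 (adjusted p = 0.0556 to 0.109). The ratio of Hsp90b1 to Hsp90ab1 was 4.6, 4.51 and 5.05 in WT, 12.5, 7.55 and 7.61 in DH-LMP2A and 11.9, 10.8 and 9.29 in kFRA. Here all libraries of both other genotypes exceeded all of WT (exact permutation p = 0.1 each), and kFRA and DH-LMP2A overlapped (p = 0.4). Of 12 such ratio tests none can pass 0.05 in this design. The counts given to copies of Hspa8 decide the first ratio in DH-LMP2A. With them added to Hspa8, a choice made after the data were seen, the ratio was 2.45, 2.47 and 2.54 in WT, 2.8, 1.83 and 2.27 in DH-LMP2A and 5.1, 4.78 and 4.63 in kFRA. DH-LMP2A then overlapped WT (exact permutation p = 0.7), and kFRA stayed above both (p = 0.1 each).

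The genes whose profile over the 9 libraries was most like the summed Hspa1 pair were sought among 9624 genes with a mean of at least 5 CPM. They were Eif4e2 (r = 0.935), Vps26b (0.922), Unc119b (0.922), Alkbh5 (0.897) and Gtf3c4 (0.895), by Pearson correlation of log2 CPM. For Hspd1 they were Nrde2 (0.941), Kxd1 (0.936), AI837181 (0.905), Gpi1 (0.895) and Zfp1 (0.87). None of these is a heat shock protein, and with 9 libraries that share genotype, depth and scaling, the top values among so many genes are a description.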

How the data were processed

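The 10 members and the gene lists were chosen with earlier results of these data known. The values used are read counts per gene, deposited by the authors in 1 table of 46958 genes with exon coordinates. The submitters' processing notes name STAR 2.4.0a, featureCounts, Subread 1.5.0-p3 and DESeq2, with builds mm10 and GRCm38. The strand setting and the treatment of reads that match several genes are not given in the sources used here, which bears on genes with near copies and on genes that overlap. Chromosome, gene start and gene end were identical to those of GENCODE M21 for 8 of the 10 members, the others being Hspa8 and Dnajb1. Single exons were not compared.

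Counts were scaled by TMM, filtered with filterByExpr (14199 genes tested) and fitted over all 9 libraries with edgeR 4.0.16 (glmQLFit, R 4.3.3). Adjusted p-values are Benjamini-Hochberg values from edgeR's quasi-likelihood test over all tested genes unless DESeq2 1.42.0 is named, and a gene was called at an adjusted p under 0.05. Intervals are 95%. Each sample is 1 mouse, so p-values measure the spread between mice. Correlations, the spread within genotypes and the 2-fold counts per library used log2 of CPM plus 0.5. Near copies were found with BLAST+ 2.17.0. Besides the 10 members, the text names up to 4 genes of each chaperone list and of the immediate early genes, those with the smallest p over the 3 comparisons, plus Hsf1, Hspa9, Hspa5, Hsp90b1, Fos and Bag3, marker and overlapping genes, and the 5 genes most like the Hspa1 pair and Hspd1. Dnajc7, Dnaja4 and Btg2 fall outside this rule and were named after their values were seen. Alternatives covered scaling, filters, the immunoglobulin genes, the libraries fitted, the test, the threshold, the replicate number and each library left out. Adding near copies and leaving out kFRA replicate 2 and WT replicate 3 together were chosen after seeing the data.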

Additional observations from a re-analysis of the deposited data

How the results depend on the processing

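Among the 10 members, Hspb1 was the call that lasted. In kFRA against WT it passed wherever it could be tested. The filter at a mean of 5 CPM removed it and left 0 members called in both comparisons against WT. The Wald test of DESeq2 called 2 members in kFRA against WT (Hspb1 and Hspa1a), library size alone called 2 in DH-LMP2A against WT (Hspb1 lower, Hsp90ab1 higher), and a threshold of 0.01 left 0 there. Leaving out 1 library gave 1 to 3 members in kFRA against WT, 0 to 1 in DH-LMP2A against WT and 0 in kFRA against DH-LMP2A. Without kFRA replicate 2 and WT replicate 3 there were 2, 1 and 1. Over all genes, where 2523, 1756 and 713 were called in these comparisons, leaving out 1 library gave 1271 to 5632, 932 to 1408 and 352 to 3299, the highest in the first and last without kFRA replicate 2. Without kFRA replicate 2 and WT replicate 3 the first and last were 5545 and 3437. A threshold of 0.01 left 975, 765 and 306, the 5 CPM filter 1094 in DH-LMP2A against WT, and DESeq2 called 1405 in kFRA against DH-LMP2A. Adding the near copies to Hspa8 turned the log2 difference of the Hspa5 to Hspa8 ratio in DH-LMP2A against WT from 0.44 to −0.13. The cause of the other shifts was not tested. Library size alone raised the share of called genes that were higher in the comparisons against WT, from 37.6% and 41% to 72% and 79.9%, and lowered it from 34.4% to 26% in kFRA against DH-LMP2A.

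Replicate numbers in the titles name mice, and the labels name no pairing by them. Deviations of same-numbered libraries correlated at −0.249 to 0.24, over 0.1 in 4 of 9 pairs. Pairs of replicate 3 gave 0.159, 0.202 and 0.214, those of replicate 1 −0.249 to 0.0681 and those of replicate 2 −0.0201 to 0.24. Whether same-numbered libraries were handled together is not given, and these correlations cannot decide it. A fit with the replicate number as a block called 1, 1 and 0 members and 2930, 2067 and 685 genes. Depth limits Hspb1 most, at 6 to 47 counts per library.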

Other observations

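Immediate early genes, which switch on within minutes of a signal or of handling, were read beside the heat shock proteins. Of 20 tested, 4 were called lower and 1, Btg2, higher in kFRA against WT and 3 lower in DH-LMP2A against WT, with 0 called by edgeR in kFRA against DH-LMP2A (4 at an unadjusted p under 0.05, 2 by DESeq2). In kFRA against WT, 13 of the 20 had positive differences (median 0.27), DESeq2 called 11, and leaving out 1 library moved the count of 5 to 2 without kFRA replicate 1 or WT replicate 2, 3 without kFRA replicate 3 or WT replicate 1, and 8 without kFRA replicate 2. Over all genes, 5632 were called in kFRA against WT without kFRA replicate 2. In DH-LMP2A against WT the count of immediate early genes fell to 1 without DH-LMP2A replicate 1 or WT replicate 2. Egr2, a transcription factor induced by antigen receptor signals, gave 4.46, 4.28 and 4.33 CPM in the WT libraries, 1.1, 0.742 and 0.732 in those of DH-LMP2A and 0.889, 0.571 and 1.51 in those of kFRA. It was called lower in both (log2 fold change −2.33, edgeR adjusted p = 0.00287 in DH-LMP2A, and −2.15, adjusted p = 0.00381 in kFRA), on leaving out any 1 library too. Nr4a1, a nuclear receptor that also follows antigen receptor signals, was called lower in kFRA (−1.45, adjusted p = 0.00846) and in DH-LMP2A (−1.08, adjusted p = 0.0334), the second ending on leaving out DH-LMP2A replicate 1 or 3 or WT replicate 1 or 2 (adjusted p = 0.0583 to 0.102).

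Fos, a subunit of the transcription factor AP-1, gave 245, 360 and 441 CPM in WT, 728, 425 and 67.9 in DH-LMP2A and 933, 604 and 976 in kFRA. Each kFRA library was above each WT library, but the difference of 1.27 (SE 0.65) on the log2 scale did not pass edgeR's test (adjusted p = 0.192). DH-LMP2A replicate 3, the lowest of the 9 libraries for Fos, was the highest of its genotype for Hspa1a, Hspa1b, Dnajb1 and Hsph1. With 3 mice per genotype no relation between the lists was tested.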
